A study of Mus musculus with 8 samples.

Results

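Rab GTPases are small switch proteins of membrane traffic. Each is delivered to the membrane of a particular compartment, where its GTP-bound form recruits motors, tethers and other effectors that move vesicles and let them fuse. Most act in every cell, such as the Rab5 proteins of early endosomes, Rab7 of late endosomes and Rab11a of recycling endosomes, while a few are used mainly in epithelia, where cargo has to be sent to an apical or a basolateral surface. Rab25, an epithelial member of the Rab11 subfamily, works in apical recycling and is known for altered expression in carcinomas.

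The Rab genes were taken as the rows of the deposited expression table whose symbol is Rab, a number and at most 1 letter from a to d. This gave 43 of 10924 genes, of which 4 stood on an epithelial or exocrine list (Rab25, Rab17, Rab20 and Rab3d), 17 on a list of ubiquitous Rabs and 22 on neither. RNA came from PyMT lines, cells derived from mammary tumors of FBV/N mice (strain as labelled) in which the MMTV promoter drives the polyoma middle T oncogene, so that oncogene was shared by all groups. The 4 groups, with 2 libraries each, were Lats1-CKO basal-like, Lats1-CKO luminal, WT basal-like and WT luminal cells. Lats1-CKO cells carry a conditional deletion of Lats1, a kinase of the Hippo pathway, and cells were sorted for high CD49f and, by their EpCAM, called luminal where it was high and basal-like where it was low, and then expanded in culture for a time that was not given. In the study, basal-like cells sorted from WT cultures became partly luminal over passages, while those sorted from Lats1-CKO cultures stayed basal-like. The sources used here tie no age of the mice to these lines, and the driver of the deletion and the number of lines or clones behind the replicates were not given in them, so that the p-values reflect the spread among these libraries alone. The 2 libraries of a group differed by more than read sampling, with chi-squared per degree of freedom of 18.1 to 37.3 over genes. That measure takes reads as independent. What the spread between the replicates stems from, technical or other, was not tested. The study describes fibroblast-type cells in Lats1-CKO cultures before sorting. It defined them by CD44 and by LATS1 protein, since the deletion lay in the epithelial compartment.

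Libraries held 1070358 to 2334446 reads over the genes of the table, and values are read counts divided by a size factor of the library, so that 1 read was worth 0.638 to 1.35. Lats1 lay between 8.04 and 13.4 in the 4 Lats1-CKO libraries and between 30.3 and 62.5 in the 4 WT libraries. Across genes, 0 of 8 libraries correlated best with the other library of its own group, and WT basal-like replicate 1 and WT luminal replicate 2 were the most alike pair (Pearson's r = 0.94). All 9 listed epithelial markers, Epcam and Cdh1 (E-cadherin) among them, were lower in both Lats1-CKO basal-like libraries than in each of the other 6, with summed values of 204 to 308 in Lats1-CKO basal-like, 3278 to 8441 in luminal Lats1-CKO, 4103 to 8515 in WT basal-like and 12145 to 12716 in WT luminal. Epcam, the RNA of the sorting marker, was at 10.7 and 33.7 in Lats1-CKO basal-like and 562 and 255 in WT basal-like cells. In luminal cells it was at 511 and 555 in Lats1-CKO and 708 and 523 in WT. WT basal-like replicate 1 thus lay within the Epcam range of the luminal libraries after expansion. The 8 measured fibroblast and mesenchymal markers, most of whose sum was Vim, summed to 11628 to 16498 in Lats1-CKO basal-like, 2527 to 4907 in luminal Lats1-CKO, 2625 to 5591 in WT basal-like and 869 to 1468 in WT luminal. Of these, Vim, Col3a1 and Thy1 were higher in both Lats1-CKO basal-like libraries than in each of the other 6. Col1a1, Col1a2, Pdgfra, Pdgfrb and Dcn overlapped the other libraries. The 5 measured basal and myoepithelial markers, most of whose sum was Krt14, were also lowest as a sum in Lats1-CKO basal-like, at 177 to 717, and reached 3055 to 19700.3 in luminal Lats1-CKO, 1123 to 2143 in WT basal-like and 1993 to 3868 in WT luminal. Singly, Krt14 was lowest in Lats1-CKO basal-like, and Cnn1 was highest there, at 6.70 and 11.6 against at most 2.02 elsewhere. Krt5, Krt17 and Trp63 overlapped the other libraries. Krt5 and Krt14 stood out in Lats1-CKO luminal replicate 2, at 4881 and 14722. Cartilage genes stood out in the second libraries of both Lats1-CKO populations, where Col2a1 reached 22433 in basal-like replicate 2 and 3099 in luminal replicate 2, against at most 106 in the other 6 libraries.

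Rab25 was the only Rab gene called by limma in any of the 7 comparisons. It was lowest in Lats1-CKO basal-like cells, at 8.04 and 7.77 (7.90 ± 0.19, SD, n = 2), against 182 and 96.3 in WT basal-like cells (139 ± 60.5, SD, n = 2). In luminal cells it was abundant in either genotype, at 317 and 273 in Lats1-CKO and 342 and 434 in WT. The 4 basal-like libraries therefore all lay below the 4 luminal libraries, and the Lats1-CKO basal-like libraries, with 12 Rab25 reads in all, lay below every other library. Their mean was 5.68% of that in WT basal-like and 2.68% of that in Lats1-CKO luminal cells. In bulk samples, fewer cells that express a gene and less RNA per cell cannot be told apart.

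By limma over all tested genes, with Benjamini-Hochberg adjustment, Rab25 fell in Lats1-CKO versus WT basal-like cells by 3.91 on the log2(value + 1) scale (SE 0.36, 95% interval -4.76 to -3.05, adjusted p = 0.0143). Against Lats1-CKO luminal cells the difference was -5.05 (SE 0.36, adjusted p = 0.00297). The population difference in WT cells was -1.53 (SE 0.36) and did not pass the adjustment (limma unadjusted p = 0.00349, adjusted p = 1). The genotype difference in luminal cells was -0.39 (95% interval -1.24 to 0.46, limma adjusted p = 1). The test of the difference between these effects, the interaction, gave -3.52 (SE 0.52, 95% interval -4.72 to -2.31) with an unadjusted p of 0.00019 and an adjusted p of 0.224 by limma, while DESeq2 on the recovered reads called it (adjusted p = 0.00123 with default settings). Averaged over both populations, Rab25 was lower in Lats1-CKO than in WT by limma (-2.15, SE 0.26, adjusted p = 0.0357), and averaged over both genotypes it was lower in basal-like than in luminal cells (-3.29, SE 0.26, adjusted p = 0.00763), where it had the lowest p of all 9031 genes.

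The 2 pairwise calls differ in how much they rest on single libraries. With only the groups compared in the fit, neither was kept (limma adjusted p = 0.151 against WT basal-like and 0.0859 against Lats1-CKO luminal cells). The call against Lats1-CKO luminal cells was kept without any 1 of the 8 libraries (limma adjusted p from 0.00737 to 0.0405), though in 4 of these fits 1 side held a single library, which is then assumed to vary like the other groups, whereas that against WT basal-like cells was lost without WT basal-like replicate 1 (-3.45, adjusted p = 0.128). Without both libraries high in cartilage genes, a choice made after their values were seen, the difference was -3.88 against WT basal-like cells (limma adjusted p = 0.0379), with 1 Lats1-CKO basal-like library left, and -5.14 against Lats1-CKO luminal cells (limma adjusted p = 0.0465), with 1 library left on each side. The spread then came from the WT groups alone. The averaged genotype call was kept in 1 of the 8 fits that leave out a library and the averaged population call in 4 of 8. Markers of other cell types also differed between the groups, as given above, some of them opposite to Rab25. The part of cell composition in the Rab25 values was not tested.

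**Figure D1:**
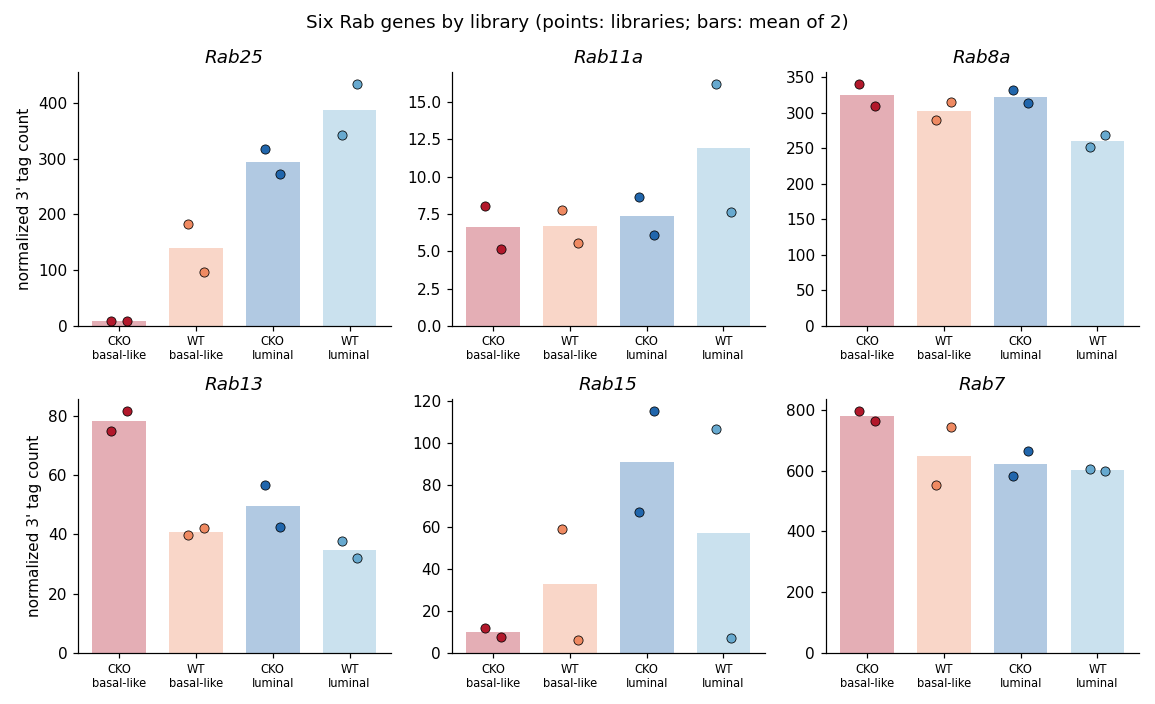
Normalized 3' tag counts (y axis, linear, from 0) of Rab25, Rab11a, Rab8a, Rab13, Rab15 and Rab7 in Lats1-CKO (CKO) basal-like, WT basal-like, CKO luminal and WT luminal cells; points are libraries and bars the mean of 2. Rab25 is at 8.04 and 7.77 in CKO basal-like cells and at 96.3 or more in the other libraries, while Rab8a stays within 1.35 times its lowest value and the libraries of Rab15 split within both WT groups.

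Rab25 lies on mouse chromosome 3 (88542029 to 88548300, minus strand, GRCm38, GENCODE M21), and no other annotated gene overlaps it, also with the extension that the authors used for counting. Its promoter window is shown because 2 copies of the E-box CAGGTG, the motif bound by SNAI and ZEB repressors, stand close together just before its start. The window of Rab23 is the only other Rab window with 2 copies, and that of Rab7 has none. Each RefSeq window (GRCm38.p6) runs from 250 bases before to 50 bases after the start and is written 5′ to 3′ on the gene's strand, with CAGGTG or its reverse complement CACCTG in capitals.
Rab25, chr3:88548230-88548529, minus strand: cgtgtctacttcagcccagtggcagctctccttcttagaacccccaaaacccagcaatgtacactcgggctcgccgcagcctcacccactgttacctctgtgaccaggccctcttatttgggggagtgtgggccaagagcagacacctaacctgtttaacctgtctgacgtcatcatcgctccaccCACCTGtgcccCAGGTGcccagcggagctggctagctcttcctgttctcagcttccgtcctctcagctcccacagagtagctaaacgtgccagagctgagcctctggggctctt
Rab23, chr1:33719646-33719945, plus strand: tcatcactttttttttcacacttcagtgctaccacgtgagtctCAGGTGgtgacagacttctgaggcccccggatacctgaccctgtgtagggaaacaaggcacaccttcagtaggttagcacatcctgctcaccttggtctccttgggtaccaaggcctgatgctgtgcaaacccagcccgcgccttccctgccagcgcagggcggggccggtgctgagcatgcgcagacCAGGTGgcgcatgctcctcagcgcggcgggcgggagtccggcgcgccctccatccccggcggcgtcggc
Rab7, chr6:88045221-88045520, minus strand: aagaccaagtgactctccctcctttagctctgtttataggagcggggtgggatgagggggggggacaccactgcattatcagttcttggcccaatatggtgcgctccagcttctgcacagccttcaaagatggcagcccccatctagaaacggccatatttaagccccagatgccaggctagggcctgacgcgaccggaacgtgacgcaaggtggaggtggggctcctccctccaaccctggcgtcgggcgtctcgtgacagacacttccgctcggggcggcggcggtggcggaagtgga

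In the Rab25 window the motifs begin 64 and 53 bases before the start, and in the Rab23 window 207 and 19 bases before it. Of 32851 promoter windows of all genes, 20.2% held the E-box on either strand and 2.88% held it at least 2 times. Of the 50 windows of 38 Rab genes with an entry, 10 (20%) held it, in Rab15, Rab17, Rab19, Rab22a, Rab23, Rab25, Rab27a, Rab3a, Rab5c and Rab9. Rab23, which acts in cilia and Hedgehog signaling, was at 13.4 and 22.0 in Lats1-CKO basal-like cells, against 12.4 and 7.16 in WT basal-like cells, and it was not called there (0.80, 95% interval -0.58 to 2.17, limma adjusted p = 0.762). GGAATG, the core of the site bound by TEAD factors, was in 6 of the 50 Rab windows (12%, against 14.7% of all windows), in Rab11a, Rab13, Rab15, Rab20, Rab21 and Rab5a, and was not found in that of Rab25. The AP-1 site TGACTCA was in 2 Rab windows (4%, against 5.2% of all). The GC box GGGCGG, bound by SP factors, was in 34 Rab windows (68%, against 35.7% of all), and the Rab25 window had none. The Rab25 window also held 9 CpG dinucleotides, against a median of 23 over the Rab genes (1 window each, nearest the annotated 5′ end) and 7 over all windows. These motifs were searched on both strands, do not overlap each other as written, and are letter matches only.

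No other epithelial Rab was called by limma. Rab20, a Rab of apical endosomes in epithelia and of phagosomes, was at 48.2 and 31.1 in Lats1-CKO basal-like cells, against 31.1 and 29.4 in WT basal-like cells, and at 55.7 and 41.4 in Lats1-CKO luminal cells, against 41.9 and 24.2 in WT luminal cells. Its averaged genotype difference was 0.46 (95% interval -0.22 to 1.14, limma adjusted p = 0.683), and its averaged population difference was -0.19 (95% interval -0.87 to 0.50). Rab3d, a Rab of secretory granules in exocrine cells, scattered between 1.29 and 18.2 over the 8 libraries and its groups overlapped. Rab17, which serves apical recycling endosomes of polarized epithelia, had 1, 3, 10 and 1 reads in Lats1-CKO basal-like, Lats1-CKO luminal, WT basal-like and WT luminal cells and was too low to test. Of the 3 tested epithelial Rabs 1 was called, Rab25, in the 4 comparisons where 0.288% to 0.554% of all tested genes were called. The list was chosen with earlier results of these data known, so this share is no test of epithelial Rabs as a class.

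No other tested recycling Rab was called by limma. Rab11a, the close relative of Rab25 on recycling endosomes of all cells, had few reads, at 8.04 and 5.18 in Lats1-CKO basal-like, 8.64 and 6.06 in luminal Lats1-CKO, 7.77 and 5.57 in WT basal-like, and 16.2 and 7.65 in WT luminal cells. It stayed below the minimum of 10 in all but 1 library and was not tested, while Rab11b had no row under that symbol in the deposited expression table. Rab4b, which acts in rapid recycling from early endosomes, was at 246 and 293 in Lats1-CKO basal-like cells, against 134 and 194 in WT basal-like cells, and at 162 and 202 in Lats1-CKO luminal cells, against 159 and 112 in WT luminal cells. Its averaged genotype difference was 0.58 (SE 0.23, limma unadjusted p = 0.0371, adjusted p = 0.488). Annotation leaves its reads uncertain, since the last 500 bases of Rab4b overlap an exon of Gm21983.

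Rab15, an endosomal Rab that slows recycling, varied widely within the WT groups. It was at 12.1 and 7.77 in Lats1-CKO basal-like cells and 67.2 and 115 in Lats1-CKO luminal cells, a difference of -3.06 (SE 1.32, limma unadjusted p = 0.0515, adjusted p = 0.693). In WT cells the 2 libraries of a group lay far apart, at 59.1 and 6.36 in basal-like and 107 and 7.02 in luminal cells, so that the genotype difference in luminal cells, 1.60 (SE 1.32), reversed to -0.28 without WT luminal replicate 2. No Rab15 difference passed the test.

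By limma, 0 of the 16 tested ubiquitous Rabs were called in any of the 7 comparisons, where 0% to 0.554% of all genes were, and 0 had an unadjusted p under 0.05, where 1.47% to 9.36% of all genes did; edgeR and both DESeq2 runs also called 0. In Lats1-CKO versus WT basal-like cells their differences ran from -0.28 (Rab14) to 0.77 (Rab5b), with a median of 0.13. Rab8a, which carries cargo to the plasma membrane and the cilium, was at 340 and 309 in Lats1-CKO basal-like cells, against 290 and 314 in WT basal-like cells (0.10, 95% interval -0.45 to 0.66), and at 332 and 313 in Lats1-CKO luminal cells, against 251 and 269 in WT luminal cells. Rab7, which directs late endosomes to lysosomes, was at 796 and 762 in Lats1-CKO basal-like cells, against 553 and 744 in WT basal-like cells (0.28, 95% interval -0.31 to 0.87). Over all 8 libraries the highest value of Rab8a was 1.35 times its lowest, and that of Rab7 1.44 times, against 55.9 times for Rab25. Rab22a, an early endosomal Rab, varied least, by 1.22 times.

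Rab1a and Rab13 were the members whose 4 Lats1-CKO libraries did not overlap the 4 WT libraries. Rab13, which takes part in tight junction assembly and in vesicle delivery to the surface, was at 75.0 and 81.5 in Lats1-CKO basal-like cells, against 39.6 and 42.2 in WT basal-like cells, and at 56.6 and 42.4 in Lats1-CKO luminal cells, against 37.8 and 31.9 in WT luminal cells. Every Lats1-CKO library was above every WT library, with an averaged difference of 0.70 (SE 0.22, limma unadjusted p = 0.0151, adjusted p = 0.373). Rab1a, of transport between the ER and the Golgi, was at 89.7 and 71.2 in Lats1-CKO basal-like and 62.4 and 65.6 in Lats1-CKO luminal cells. In WT it was at 37.3 and 58.1 in basal-like and 47.3 and 60.6 in luminal cells, and the averaged difference of 0.51 had an adjusted p of 0.586 by limma. These 2 of 38 members stand against 4.55% of all tested genes without overlap between the genotypes, a share near the background.

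Rab12 and Rab25 were the members that did not overlap between the 4 basal-like and the 4 luminal libraries, where 2.85% of all genes did not. Rab12, linked to endosomal and lysosomal traffic, was at 79.0 and 95.8 in Lats1-CKO basal-like and 81.6 and 78.8 in WT basal-like cells. In luminal cells it was at 59.5 and 77.7 in Lats1-CKO and 51.4 and 61.9 in WT (averaged difference 0.43, limma adjusted p = 0.829). Rab3a, a Rab of regulated secretion, had an averaged basal-like against luminal difference of 0.93 (SE 0.39, limma unadjusted p = 0.0494, adjusted p = 0.769), with values of 32.1 and 81.5 in Lats1-CKO basal-like, 24.1 and 42.2 in WT basal-like, 25.9 and 22.2 in luminal Lats1-CKO, and 24.3 and 13.4 in WT luminal cells. The populations overlapped, and the last 500 bases of Rab3a overlap an exon of Mpv17l2 on the genome.

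Several members with large differences had few reads. Rab27a, which docks secretory granules and exosome-bearing endosomes, was at 4.02 and 2.59 in Lats1-CKO basal-like cells, against 9.33 and 11.9 in WT basal-like cells (-1.45, SE 0.75, limma adjusted p = 0.645), and at 6.72 and 14.1 in Lats1-CKO luminal cells, against 5.41 and 17.2 in WT luminal cells. Rab38, which acts in the making of lysosome-related organelles such as melanosomes, had 0 reads in both Lats1-CKO basal-like libraries and in Lats1-CKO luminal replicate 1, and was at 18.2 in Lats1-CKO luminal replicate 2, against 5.44 and 1.59 in WT basal-like and 10.8 and 5.10 in WT luminal cells. The Lats1-CKO basal-like libraries lay below all 4 WT libraries and overlapped those of Lats1-CKO luminal cells. The fitted differences of Rab38 against its group at 0, -2.03 from WT basal-like and -2.13 from Lats1-CKO luminal cells (limma adjusted p = 0.777 and 0.884 in that order), depend on the pseudocount and are no bounds. Rab40b, a Rab with a SOCS box that joins ubiquitin ligases, was at 1.34 and 11.6 in Lats1-CKO basal-like cells, against 0.777 and 7.96 in WT basal-like cells, and at 3.84 and 10.1 in Lats1-CKO luminal cells, against 2.70 and 1.28 in WT luminal cells. It differed by 0.89 (SE 0.89) between the genotypes on average, within its spread. Rab5a, of early endosome fusion, was at 10.7 and 18.1 in Lats1-CKO basal-like cells, against 13.2 and 6.36 in WT basal-like cells (0.55, 95% interval -0.88 to 1.98), and its last 500 bases overlap an exon of Pp2d1. Rab19, Rab30 and Rab36 were, with Rab11a and Rab17, the 5 members too low to test.

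**Figure D2:**
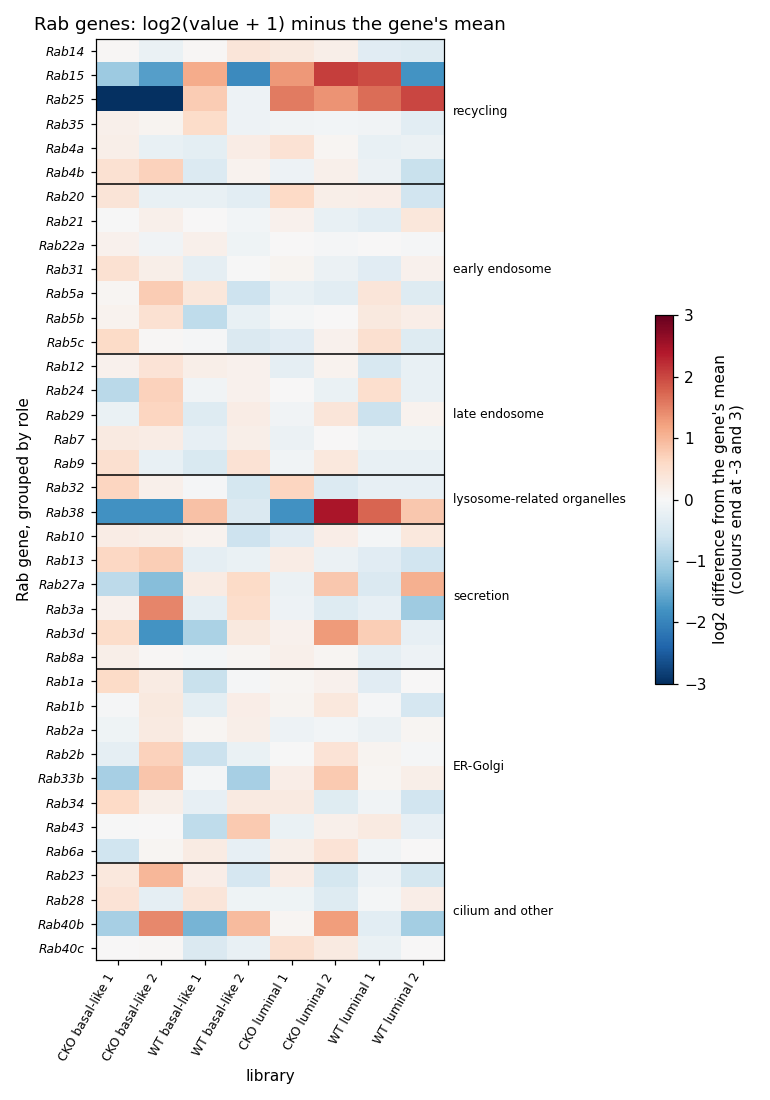
Log2(value + 1) minus the mean of each gene over the 8 libraries, for the 38 tested Rab genes (rows, grouped by role) in the 8 libraries (columns); colors end at -3 and 3. Rab25 is the darkest blue in both CKO basal-like libraries, Rab38, Rab15, Rab40b and Rab3d change color within groups, and most other rows stay pale.

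Counted over the family, limma called Rab25 only. In Lats1-CKO versus WT basal-like cells 1 of 38 members was called at an adjusted p under 0.05 by limma, where 0.554% of the 9031 tested genes were, and 2 members (Rab25 and Rab13) had an unadjusted p under 0.05, where 8.86% of all genes did. In basal-like versus luminal Lats1-CKO cells it was 1 called member against 0.487% of all genes, and 1 at the unadjusted level against 7.32%. In the averaged genotype comparison it was 1 against 0.288%, and 3 (Rab25, Rab13 and Rab4b) against 9.36%. In the averaged population comparison it was 1 against 0.376%, and 2 (Rab25 and Rab3a) against 6.48%. At the unadjusted level none of these 4 shares of members exceeded that of all genes. With Rab25 aside, the lowest adjusted p of any member in any of these 4 comparisons was 0.373.

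The other comparisons held no call by limma. In Lats1-CKO luminal against WT luminal cells, 0 of 38 members were called and 0 had an unadjusted p under 0.05, where 0% and 2.78% of all genes did, and edgeR and both runs of DESeq2 called 0. In WT basal-like against WT luminal cells 0 were called and 1 (Rab25) passed the unadjusted level, where 0% and 1.47% of all genes did, and edgeR and DESeq2 called 0. For the interaction 0 were called and 1 (Rab25) passed the unadjusted level, where 0% and 2.33% of all genes did; edgeR called 0, and each run of DESeq2 called 1, Rab25, where 0.301% of all genes were called with default settings and 0.192% under the options that the study used.

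Most Rab genes had a positive fold change in Lats1-CKO against WT cells, and none of these was called by limma. Of the 38 tested members, 30 had a positive averaged genotype difference, with a median of 0.22, where 49.0% of all tested genes were positive and their median was -0.01. The median was 0.23 in basal-like cells (0.28 with Rab38, the member with a group at 0, set to a floor of 3 reads per library there) and 0.26 in luminal cells. These comparisons share no library, but both populations were sorted from WT and Lats1-CKO cultures. A difference between the lines could therefore be in both medians, which are not independent. Averaged over genotypes, 24 members had a positive basal-like against luminal difference, with a median of 0.06. The summed value of the 42 Rab genes without Rab25 was 4688 ± 18.6 in Lats1-CKO basal-like, 4093 ± 48.1 in luminal Lats1-CKO, 3934 ± 360 in WT basal-like and 3700 ± 258 in WT luminal cells (SD, n = 2 each). Rab25 made up 0.166% to 0.171% of the summed Rab values in Lats1-CKO basal-like, 6.19% to 7.24% in luminal Lats1-CKO, 2.25% to 4.71% in WT basal-like and 8.09% to 11.0% in WT luminal libraries.

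How closely the data bound the other members depends on the comparison. Averaged over both populations, the 95% interval of the genotype difference lay between -1 and 1 on the log2 scale for 21 of 38 members, against 42.4% of all tested genes, and that of the population difference for 27 of 38, against 44.9%. In Lats1-CKO versus WT basal-like cells, with 2 libraries a side, it did so for 10 of 38, against 15.6% of all. The median difference between the 2 libraries of a group over the 38 members was 0.39 (log2) in Lats1-CKO basal-like, 0.35 in luminal Lats1-CKO, 0.51 in WT basal-like and 0.36 in WT luminal cells, where all tested genes had 0.60, 0.39, 0.49 and 0.47 in the same order.

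**Figure D3:**
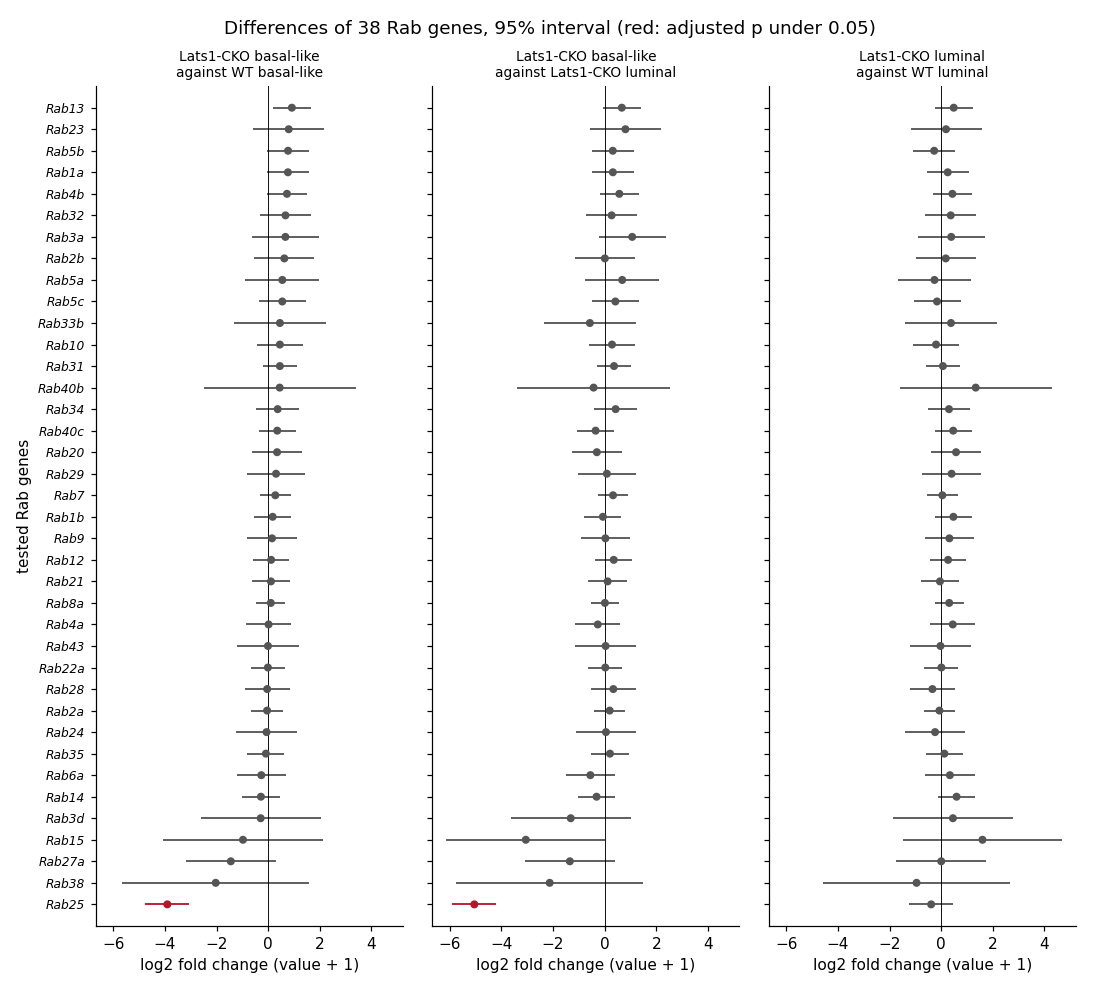
Log2 fold change on the (value + 1) scale with its 95% interval (x axis) of the 38 tested Rab genes (y axis, ordered by the first panel), for Lats1-CKO versus WT basal-like, basal-like versus luminal Lats1-CKO and Lats1-CKO versus WT luminal cells; red marks an adjusted p under 0.05. Rab25 is the only red gene, at -3.91 and -5.05, and in luminal cells its interval spans 0 at -0.39; Rab38 has 0 reads in both Lats1-CKO basal-like libraries, so its points there depend on the pseudocount.

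As a description of likeness in profile over the 8 libraries, on the log2(value + 1) scale, the highest Pearson's r with Rab25 was that of Rab27a (0.74), Rab38 (0.68) and Rab6a (0.55), and the lowest that of Rab13 (-0.87), Rab4b (-0.84) and Rab7 (-0.83). Without the 2 Lats1-CKO basal-like libraries the r of Rab27a was -0.07 and that of Rab13 -0.19, so both rest largely on those libraries. Rab6a, of traffic at the Golgi, was at 16.1 and 25.9 in Lats1-CKO basal-like cells, against 29.5 and 20.7 in WT basal-like cells, and its groups overlapped.

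Among the proteins that work with Rabs, a list of 116 regulators and effectors had 101 genes in the table, of which 90 were tested. In basal-like versus luminal Lats1-CKO cells 1 of them was called by limma, where 0.487% of all genes were, and 9 had an unadjusted p under 0.05, 3 higher and 6 lower, where 7.32% of all genes did. In Lats1-CKO versus WT basal-like cells 0 of the 90 were called, against 0.554% of all genes, and 7 passed the unadjusted level, 3 higher and 4 lower, against 8.86% of all genes. These counts were near the background. In the other 5 comparisons limma called 0, with 0 to 7 genes at the unadjusted level, where 1.47% to 9.36% of all genes passed it. DESeq2 with default settings also called Dennd2a, an exchange factor, and Myo5c in Lats1-CKO versus WT basal-like cells, where edgeR called 0 and 2.1% of all genes were called by that run. In the averaged genotype comparison the default run called both and Rab3il1, another exchange factor (3% of all genes). Under the options that the study used, DESeq2 also called Dennd2a and Myo5c in these comparisons (1.56% and 1.99% of all genes in that order). It further called Dennd2a in basal-like versus luminal Lats1-CKO cells (1.26% of all genes). Dennd2a was at 54.9 and 15.5 in Lats1-CKO basal-like cells, against 0.777 and 0.796, or 1 read each, in WT basal-like cells. Rab3il1 was at 84.4 and 3.88 in Lats1-CKO basal-like, 17.3 and 3.03 in luminal Lats1-CKO, 0.777 and 4.77 in WT basal-like, and at 0 in both WT luminal libraries. The gene called by limma was Myo5b, the myosin motor that binds Rab11 and Rab25 and pulls recycling endosomes. It was at 1.34 and 2.59 in Lats1-CKO basal-like and 28.8 and 27.3 in Lats1-CKO luminal cells (-3.32, SE 0.48, limma adjusted p = 0.0407), and at 17.1 and 11.9 in WT basal-like and 37.8 and 31.9 in WT luminal cells. Against WT basal-like cells the difference was -2.40 (SE 0.48, limma adjusted p = 0.138). The order of the 4 groups was that of Rab25, with r = 0.99 over the 8 libraries and 0.96 over the 6 without Lats1-CKO basal-like. The Myo5b call is near the threshold, and among the fits that leave out a library it was kept only without Lats1-CKO basal-like replicate 2 (adjusted p = 0.0331, against 0.0941 to 0.284 for the others).

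Other regulators and effectors were low in Lats1-CKO basal-like cells without a call by limma. Rph3al, a Rab effector of exocytosis, was at 0 and 2.59 in Lats1-CKO basal-like, 18.2 and 18.2 in luminal Lats1-CKO, 13.2 and 3.18 in WT basal-like, and 16.2 and 17.2 in WT luminal cells. Myo5c, a myosin V of exocrine and other glandular epithelia, had 0 reads in both Lats1-CKO basal-like libraries and was at 6.72 and 6.06 in luminal Lats1-CKO, 30.5 ± 33.3 (SD, n = 2) in WT basal-like and 39.2 and 16.6 in WT luminal cells. Tbc1d9, of the TBC family of Rab GTPase-activating proteins, was at 2.68 and 5.18 in Lats1-CKO basal-like, 48.0 and 17.2 in luminal Lats1-CKO, 31.1 and 31.0 in WT basal-like, and 37.8 and 35.7 in WT luminal cells (-2.75 against WT basal-like cells, SE 0.56, limma adjusted p = 0.148). These 3 were chosen after their values were seen.

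**Figure D4:**
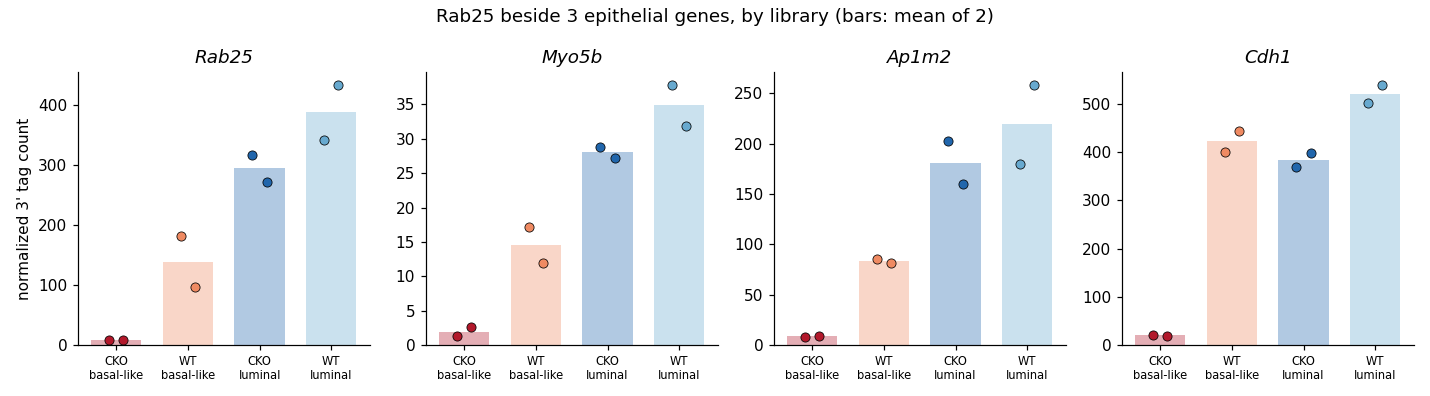
Normalized 3' tag counts (y axis, linear, from 0) of Rab25, Myo5b, Ap1m2 and Cdh1 in Lats1-CKO (CKO) basal-like, WT basal-like, CKO luminal and WT luminal cells; points are libraries and bars the mean of 2. All 4 genes are lowest in CKO basal-like cells, with Rab25 at 7.90, Myo5b at 1.96, Ap1m2 at 8.55 and Cdh1 near 20.4 on average.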

How the data were processed

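RNA of 8 libraries, sorted as luminal or basal-like from WT or Lats1-CKO PyMT lines, was measured by MARS-seq, which barcodes RNA at reverse transcription and reads 3' ends. Per the study, adapters were cut with cutadapt, alignment to mm10 used STAR, and htseq-count (union mode) assigned reads to Gencode genes lengthened by 1000 bases upstream and 100 bases downstream. Which Gencode release and strand setting were used, and whether molecular identifiers were, is not given in the sources used here. The deposited values are a signal per gene: a read count that the authors divided by the size factor DESeq2 gave the library. The fold changes and p-values of the authors for 6 pairs of groups, in the same table, were not used. Groups came from the labels, which pair no libraries.

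Genes that reached 10 in at least 2 libraries (9031 of 10924, with 38 of 43 Rab genes) were fitted on log2(value + 1) with limma 3.58.1 (R 4.3.3, intensity trend, all 8 libraries, 1 coefficient per group), with calls at an adjusted p (Benjamini-Hochberg, over all these genes) under 0.05. The pseudocount understates changes of low genes. The values were whole multiples of 1 read within 1e-06. For 1 library, Lats1-CKO luminal replicate 2, that value lay so near 1 that an independent check of the recovery could not be made, so edgeR 4.0.16 and DESeq2 1.42.0 on recovered reads serve as alternatives only. The fits were run on simulated counts with the same dispersion for all genes and large changes in abundant genes only. This does not show how they perform at the spread of these libraries. Members and lists were chosen with earlier results of these data known. Named genes were Rab25, the epithelial Rabs, every Rab or regulator called by limma, the 3 largest differences per comparison, the 3 highest and 3 lowest correlations with Rab25, and Rab1a, Rab5a, Rab7, Rab8a, Rab11a and Rab11b. Of these, Rab11b had no row. Alternatives were other pseudocounts, filters, scaling, samples and tests, and leaving out each library.

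In GENCODE M21 the last 500 bases of 6 members overlap an exon of another gene, 2 of them on the same strand. Reads of overlapping or antisense genes cannot be told apart where the strand setting is unknown. Without molecular identifiers, reads are not independent molecules.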

Additional observations from a re-analysis of the deposited data

How the results depend on the processing

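Counts of called Rab genes were 1 in 4 comparisons and 0 in 3. With only the groups compared in the fit, the counts for Lats1-CKO versus WT basal-like and for basal-like versus luminal Lats1-CKO cells were 0 each (Rab25 adjusted p = 0.151 and 0.0859 in that order), with 2 libraries a side and fewer samples to estimate the spread. For the interaction, both DESeq2 runs called 1 gene, Rab25, at -3.74 by default and -2.89 under the options that the study used (adjusted p = 0.00123 and 0.00345); the cause was not tested. Leaving out 1 library gave 0 to 1 called genes in the averaged genotype and the averaged population comparison and for Lats1-CKO versus WT basal-like cells. The averaged genotype call was kept without Lats1-CKO basal-like replicate 2 and lost without any other 1 library (adjusted p 0.0374 to 0.191), and the averaged population call was lost without either Lats1-CKO luminal library, WT basal-like replicate 2 or WT luminal replicate 1 (adjusted p 0.0128 to 0.0773). Without both libraries high in cartilage genes, chosen after seeing the data, these averaged comparisons held 0 called genes (Rab25 at -2.08 and -3.33, adjusted p = 0.0781 and 0.0592). The other pseudocounts, filters and scaling kept each count. The Myo5b call was lost with only the groups compared (adjusted p = 0.542), without both libraries high in cartilage genes (0.157), at a pseudocount of 5, with the stricter filter and by edgeR (0.06, 0.0728 and 0.0579) and kept by both DESeq2 runs. Leaving out 1 library moved Rab15 in luminal cells between -0.28 and 3.47.

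Of 357 alternative values of single genes, 326 kept their direction and their side of the threshold, 28 lost a call, 2 gained one and 1 reversed. All 28 lost calls were of Rab25 or Myo5b, in comparisons where limma had called them. The 2 gained were of Rab25 for the interaction by DESeq2 (adjusted p = 0.00123 and 0.00345). The 326 include values that were not called in the main fit and stayed so, and these had no call to lose. No paired analysis was made, because the labels do not say which libraries of different groups belong together. A line or batch shared across groups would therefore not be modelled. Depth limits Rab11a, Rab17, Rab19, Rab30, Rab36, Rab38 and Rab40b, which had at most 24 reads in any group.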

Other observations

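Over all 9031 tested genes, the profile most like that of Rab25 was that of Ap1m2, which encodes the epithelial subunit of the AP-1B clathrin adaptor for basolateral sorting (Pearson's r = 0.99 over 8 libraries and 0.93 over the 6 without Lats1-CKO basal-like, on the log2(value + 1) scale). Ap1m2 was at 8.04 and 9.06 in Lats1-CKO basal-like, 202 and 159 in luminal Lats1-CKO, 85.5 and 81.9 in WT basal-like, and 180 and 258 in WT luminal cells. Grhl2, a transcription factor of epithelial identity, came next, with means of 4.60 in Lats1-CKO basal-like, 55.2 in luminal Lats1-CKO, 32.5 in WT basal-like and 59.8 in WT luminal cells. Myo5b was the 4th most alike, and the serine protease St14 and its inhibitor Spint1, which act together on epithelial surfaces, were also among the 10 most alike, as was the desmosomal plakophilin Pkp3. The points share their libraries, and 2 of the 8 hold most of the range of each gene.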
